A study of Rattus norvegicus with 4 samples.

Results

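The spots described here ranked high for both central and peripheral myelin transcripts within their own capture area. Spots with 2000 or more unique molecular identifiers (UMIs, counted transcript molecules) were ranked in each area by the summed level of 5 central myelin genes (Mobp, Mog, Opalin, Ermn and Hapln2) and by that of 5 peripheral myelin genes (Prx, Egr2, Drp2, Ncmap and Cldn19). The 300 spots with the highest minimum of the 2 ranks were kept, of 6623 spots that passed the UMI minimum and 6773 in all. The members were chosen by the measured levels of these 10 genes alone. They are called dual-rank spots below, since their working label, transition spots with central and peripheral myelin, was not met alike in the 4 areas. Spots over percentile 90 on one score and under percentile 50 on the other served as the central reference (612 spots) and the peripheral reference (528 spots). A Visium spot covers a small patch of the section and can hold several cells, so a spot is not a cell type.

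The tissue was rat trigeminal root, semilunar ganglion and proximal branches, sectioned onto 4 capture areas of a Visium slide. Areas TN1, TN2 and TN3 held the side of a unilateral mechanical compression that serves as a model of trigeminal neuralgia, 1 animal each, and the fourth, HC, held healthy control tissue of 2 animals. All were labelled wild type, with no agent or transgene named in the labels, and the study's methods describe the animals as male Sprague-Dawley adults without an exact age. The series description takes HC from the healthy side of 2 of the TN animals while the study's methods speak of sham operation, so the TN and HC tissue may come from opposite sides of one rat. The 2 HC animals share 1 set of barcodes and count as 1 sample. Where 4 values follow each other below, they stand in the order TN1, TN2, TN3, HC.

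Along a cranial nerve root, myelin changes its maker. Oligodendrocytes wrap axons on the central side, Schwann cells wrap them on the peripheral side, and the 2 territories meet at a transition zone where an astrocyte-rich limiting border, meningeal cells and the first Schwann cells lie close together. The trigeminal root is known for this zone because vessels that press on it there are associated with trigeminal neuralgia. Positions and images of the spots were not analysed here, so nothing below says where in the root a spot lay.

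The areas gave unequal numbers of dual-rank spots. TN1 held 31, or 1.96% of its spots (exact binomial 95% interval 1.34 to 2.78). TN2 held 62, or 5% (3.85 to 6.36). TN3 held 135, or 7.5% (6.32 to 8.81), and HC held 72, or 3.59% (2.82 to 4.5). TN3 alone thus gave 45% of all dual-rank spots. These intervals cover counting error only, and membership was set by the rule, so the shares are no finding about condition. Of 3573 barcode sequences in the matrix 2337 occurred in more than 1 area, and 3 of the 297 sequences of dual-rank spots marked a dual-rank spot in each of 2 areas.

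Depth differed between areas. The median UMIs of a dual-rank spot were 5567 in TN1, 25789 in TN2 and 11819 in TN3, with 7633 in HC, and their sums were 168795, 1504286, 1833625 and 549612 UMIs. The central reference had medians of 5549, 8187, 4526 and 12381 UMIs, and the peripheral reference 7313, 32040, 11129 and 16547, in the same order. Mitochondrial transcripts took 13.1% of the UMIs of dual-rank spots in TN1, 7.62% in TN2 and 7.23% in TN3, with 10.7% in HC. The share was 13.5%, 13%, 10.6% and 8.82% in the central reference and 7.5%, 6.72%, 6.59% and 4.65% in the peripheral reference. Dual-rank spots thus lay below the central reference in the TN areas, by little in TN1, and above it in HC, and in each area above the peripheral reference, and the part of this in the results was not tested. The TN1 values are the least precise, since its 31 spots hold the fewest UMIs.

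The minimum rank reached 81.3 in the best spot, in HC, and 61.7 in the last one kept. The last spot kept and the first one left out were both in TN2 and had the same minimum rank, a tie broken by their order in the matrix. The last spot kept had central and peripheral scores of 107 and 853 CPM (UMIs scaled to a common total for each spot or sum), from 5 and 40 UMIs. The first one left out had 744 and 651 CPM, from 16 and 14 UMIs. The 2 scores ran against each other over spots, with Spearman coefficients of -0.68 in TN1, -0.54 in TN2 and -0.51 in TN3, with -0.59 in HC over 1578, 1240, 1801 and 2004 spots. The coefficients are descriptions, since spots of an area share 1 library and both scores share the spot's depth.

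**Figure D1:**
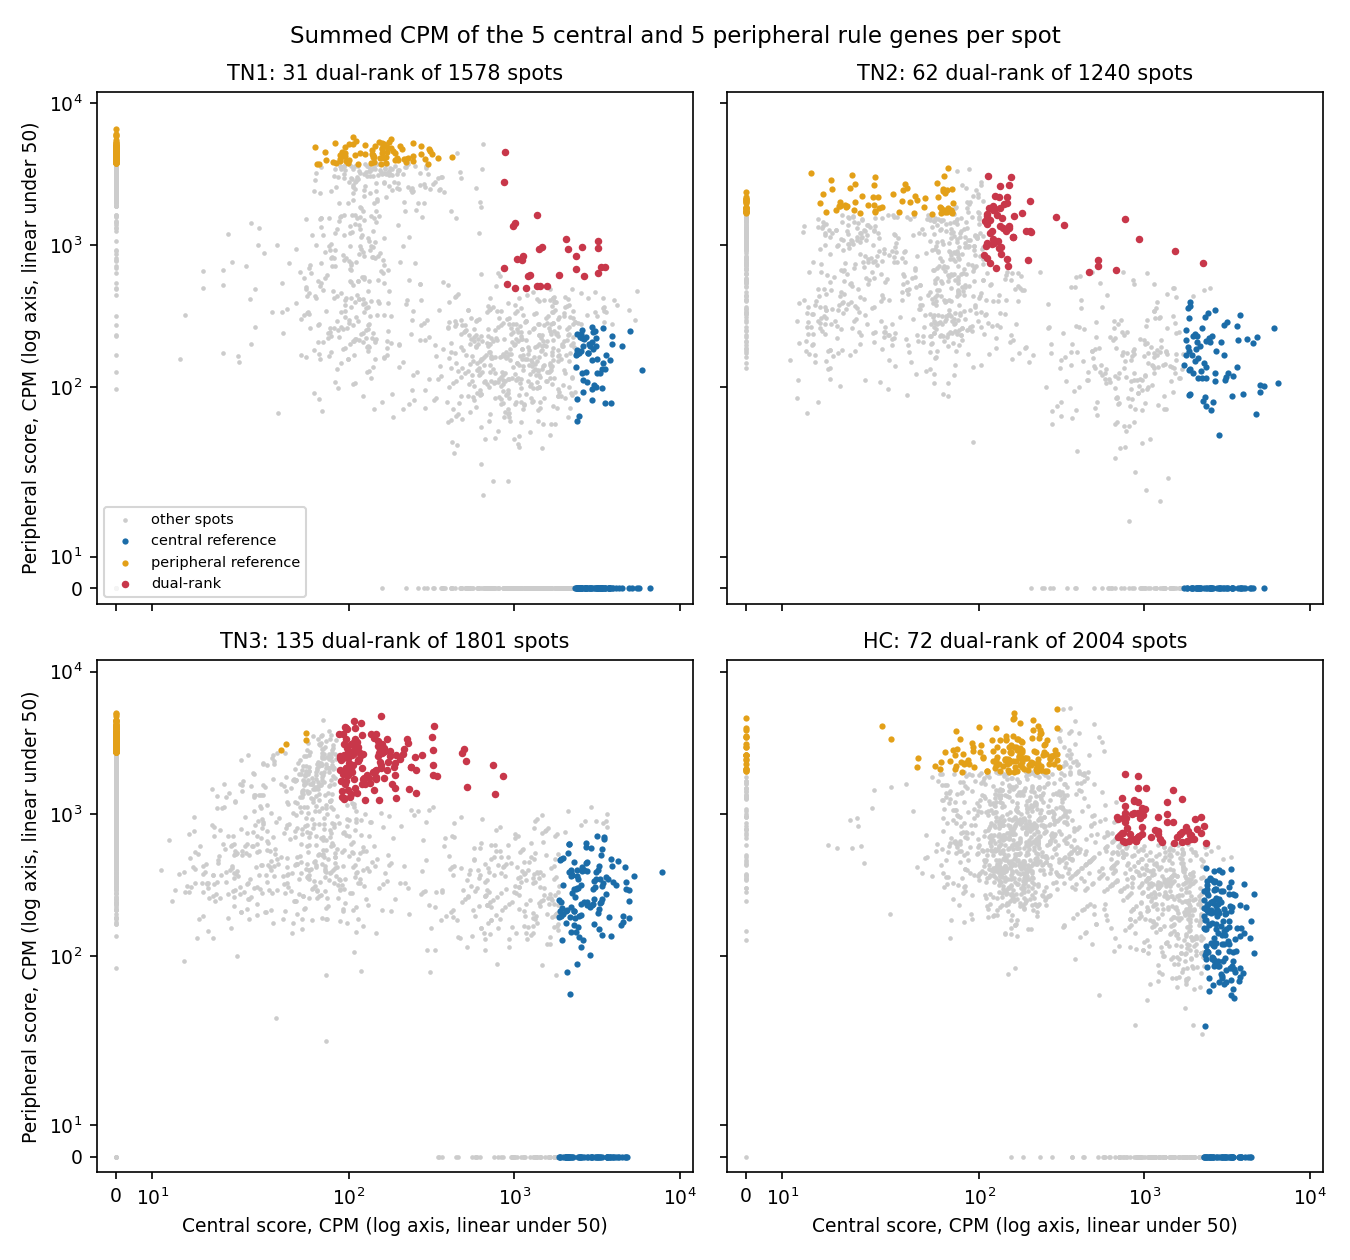
Central score (horizontal axis) against peripheral score (vertical axis) of every spot with 2000 or more UMIs, both as summed CPM on log axes that are linear under 50, in a panel for each capture area. Red points are dual-rank spots, blue and yellow points the central and peripheral references, and gray points the other spots; the dual-rank spots of TN1 and HC lie between the references, while most of those of TN2 and TN3 lie beside the peripheral reference at a central score near 100 CPM.

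By the rule's own genes, the central part was large in TN1 and HC and small in TN2 and TN3. Summed over dual-rank spots, the 5 central rule genes stood at 1683 CPM in TN1 and 1203 CPM in HC, 54.5% and 40.5% of the level in the central reference of the same area. In TN2 and TN3 they stood at 175 and 162 CPM, 6.25% and 5.65% of that reference. The 5 peripheral rule genes stood at 1007 CPM in TN1, 1371 in TN2 and 2287 in TN3, with 875 in HC, which is 22.8%, 64.1%, 67.9% and 32.5% of the peripheral reference. These 10 genes chose the spots, so their values are given as a description with no test. In a spot, fewer cells of a type and less RNA per cell cannot be told apart.

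The single rule genes showed this area by area. Mobp, a protein of compact central myelin, was at 640 CPM in TN1, 78.4 in TN2 and 54.5 in TN3, with 580 in HC, beside 1125 to 1189 CPM in the central reference. Mog, on the outer surface of oligodendrocyte myelin, was at 486, 40.6, 39.8 and 227 CPM. Both genes were thus low in TN2 and TN3 alone. Prx, a scaffold of Schwann cell myelin, was at 681, 872, 1446 and 588 CPM, beside 1388 to 2739 CPM in the peripheral reference. Egr2, the transcription factor that drives myelination in Schwann cells, was at 47.4, 77.8, 127 and 10.9 CPM, from 8, 117, 233 and 6 UMIs, beside 258, 124, 174 and 52.1 CPM in the peripheral reference, so HC was lowest in both kinds of spot and the TN1 and HC values rest on few UMIs.

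The level a spot needed for a high central rank differed between areas. The central score at the lowest rank kept was 826 CPM in TN1 and 680 in HC but 107 in TN2 and 86.5 in TN3. In TN3, 33.5% of all spots had no UMI of the 5 central genes, against 15.7% in TN1, 11.5% in TN2 and 3.54% in HC. The median dual-rank spot held 7 central UMIs in TN1, 3.5 in TN2 and 2 in TN3, with 8 in HC. A spot of TN3 could therefore enter with a single central UMI. Of the 300 spots, 126 reached 10% of their area's reference on both scores, which was 31 of 31 in TN1, 72 of 72 in HC, 10 of 62 in TN2 and 13 of 135 in TN3. Those 10 genes chose the spots, and with further myelin genes outside the rule the counts at 10% of both references were 12 of 31 in TN1, 29 of 62 in TN2 and 31 of 135 in TN3, with 63 of 72 in HC. TN1 was thus not above TN2 by the further genes, since 12 of its 31 spots reached 10% of the peripheral reference.

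Summed over spots, myelin genes that the rule did not use ordered the areas alike, with the larger central part in TN1 and HC. The summed level of 12 further central myelin genes, such as Cldn11 of oligodendrocyte tight junctions and the lineage factors Olig1 and Olig2, was 2903 CPM in TN1, 624 in TN2 and 424 in TN3, with 1892 in HC, or 54.4%, 11.2%, 8.17% and 28.1% of the central reference. The mean over areas was 25.5% ± 21.2 (SD, n = 4). The summed level of 11 further peripheral myelin genes, such as Pmp22, a protein of compact Schwann cell myelin, and Pmp2, a lipid-binding protein of it, was 14.9%, 62.4%, 76.2% and 16.5% of the peripheral reference, with a mean of 42.5% ± 31.5 (SD, n = 4). TN1 and HC were thus the 2 areas with the larger central and the smaller peripheral part, and TN2 and TN3 the reverse. This order held for these lists with 150 or 600 spots, with at least 5000 UMIs, without Mobp and Prx and with scores thinned to 2000 UMIs, but not when spots were ranked over all areas together. The further central genes then stood at 26.5%, 25.4%, 36.8% and 14.3% of the central reference and the further peripheral genes at 61.4%, 21.8%, 39.8% and 44.5% of the peripheral reference, so TN3 had the largest central part and TN1 and HC the largest peripheral parts. The rule's central genes stood at 27.3%, 17%, 30.1% and 19.3% by those ranks.

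**Figure D2:**
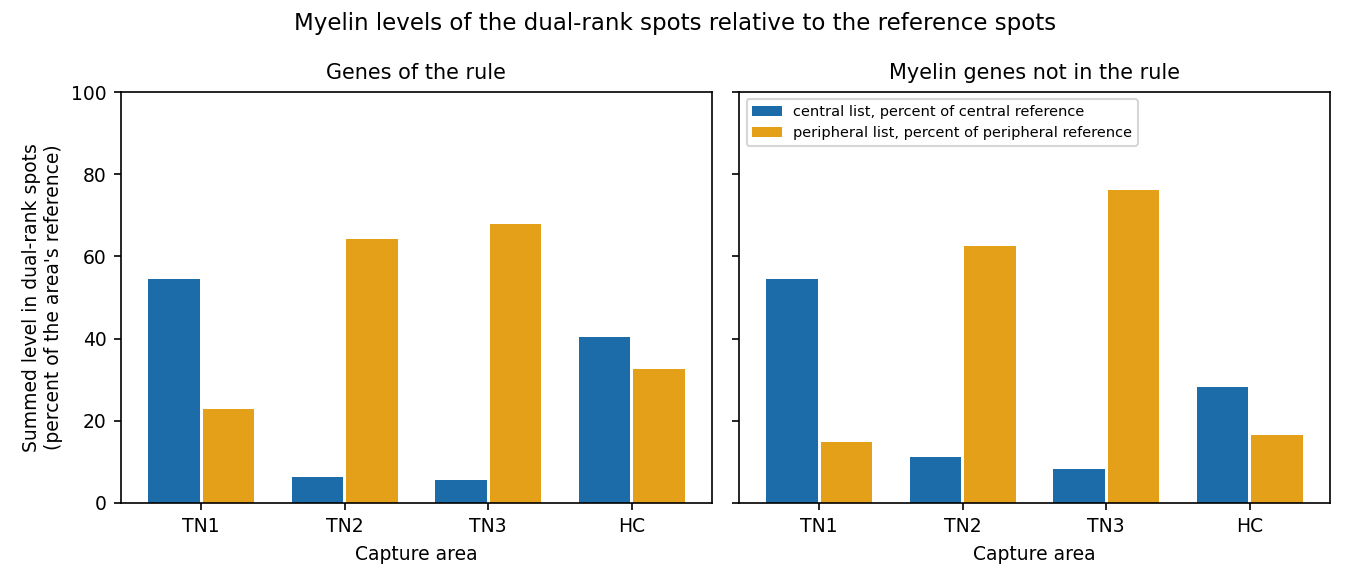
Summed CPM of the dual-rank spots as a percent of the area's reference (vertical axis) in each capture area (horizontal axis), for the rule genes (left) and for myelin genes not in the rule (right), with no error bar since each bar is 1 sum of UMIs. Blue bars are central lists against the central reference and yellow bars peripheral lists against the peripheral reference; blue bars are under 12% in TN2 and TN3 in both panels, and yellow bars are over 60% there.

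Single spots rarely carried both sets of further genes at a high level. Over the area's percentile 75 on both lists stood 1 of the 300 dual-rank spots, in TN1, which was also the only one among all 6623 spots. With at least 5000 UMIs the count was 21 of 167 dual-rank spots, 9 of 98 peripheral reference spots and 46 of all 1562 spots in TN3, and 0 in the other areas. At percentile 60, a level chosen after that result, 79 of the 300 dual-rank spots stood over it on both lists, against 1 of 612 central reference spots, 25 of 528 peripheral reference spots and 258 of all 6623. By area these were 29% of dual-rank spots in TN1, 22.6% in TN2 and 31.9% in TN3, with 18.1% in HC, against 1.39%, 2.82%, 8.44% and 2.45% of all spots. Of the 25 peripheral reference spots 21 were in TN3, where they made up 17.9% of that reference. At percentile 50 the count was 151 of 300 against 18 of 612 central reference spots, 79 of 528 peripheral reference spots and 804 of 6623. Peripheral reference spots were then also above all spots in TN2, TN3 and HC, with 31.6% in TN3 beside 17.2% of all its spots. The further genes thus stood together more often in dual-rank spots than in all spots of each area at both levels, though the genes of the rule and the further genes of the same myelin were not independent of each other.

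Against the central reference, all 7 connective tissue genes and 5 of 10 sensory neuron genes tested were higher in dual-rank spots over the 4 areas. Against the peripheral reference none of them passed, with median log2 fold changes of -0.56 and 0.08 for these lists. The calls were thus made against the central reference only. No gene at all was called against the peripheral reference by edgeR, so no likeness to it can be read from that. With ranks over all areas together, 7 of 7 connective tissue genes but 1 of 9 sensory neuron genes were higher than in the central reference. By ranks within areas, Schwann cell genes were also higher and oligodendrocyte genes lower than in the central reference, which goes with the choice of spots. UMIs were summed by area and spot type and tested with edgeR's quasi-likelihood test with the area as a block and Benjamini-Hochberg adjustment over 8662 genes, without the 10 rule genes. At an adjusted p under 0.05, 766 genes were higher than in the central reference (8.84% of those tested) and 669 lower (7.72%). The spots and the reference were separated by myelin genes of the same spots, so a difference in other myelin genes is bound to the choice and supports nothing. The counts also rested on TN2 and TN3: 348 genes passed without TN2 and 270 without TN3, and without both, a setting chosen after their levels were seen, none of 8344 passed, while 648 had an unadjusted p under 0.05. DESeq2 over all 4 areas called 723 higher and 686 lower.

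Of the peripheral myelin genes outside the rule, 10 of 11 tested were higher and none lower, with a median log2 fold change of 2.24, beside 0.04 over all genes tested. Pmp22 was at 5705 CPM in TN1, 7981 in TN2 and 18029 in TN3, with 3635 in HC, and at 1043 to 1833 CPM in the central reference (log2 fold change 2.43, SE 0.36, adjusted p = 0.0011 by edgeR). Every area's dual-rank spots lay above every central reference, and TN2 and TN3 lay highest. Of the central myelin genes outside the rule, 10 of 11 tested were lower, with a median of -2.62. Cldn11 was at 806, 271, 142 and 546 CPM in dual-rank spots and at 1477 to 2058 CPM in the central reference (log2 fold change -2.24, SE 0.38, adjusted p = 0.0022 by edgeR), with no overlap.

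Of 13 genes that both kinds of myelin use, 8 were lower than in the central reference and none higher (median -1.07). Mbp, a protein that compacts both kinds of myelin, was at 33864, 7615, 10868 and 37343 CPM beside 31627, 36932, 51429 and 61520 CPM in the central reference, so TN1 did not lie below its reference (log2 fold change -1.32, SE 0.41, adjusted p = 0.045 by edgeR). Genes of cholesterol synthesis, on which myelin membrane depends, were lower in 10 of 12 cases (median -1.14). Hmgcs1, an early enzyme of the pathway, was at 930, 263, 475 and 839 CPM beside 1286, 711, 1433 and 1814 CPM (log2 fold change -1.26, SE 0.23, adjusted p = 0.0033 by edgeR), and each area lay below its own central reference. Against the peripheral reference, where edgeR called no gene, the list medians were -0.20 for shared myelin and -0.26 for cholesterol synthesis.

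All 7 connective tissue genes were higher than in the central reference, with a median log2 fold change of 1.79. Against the peripheral reference 6 of the 7 had a negative fold change (median -0.56). Their summed level was 15.6%, 92.7%, 89.5% and 120% of that reference. Col1a1, a chain of type I collagen, was at 308, 1751, 1727 and 2307 CPM beside 82, 536, 510 and 270 CPM in the central reference. Dcn, a proteoglycan of collagen fibres, was at 290, 1254, 1224 and 231 CPM beside 87.8, 189, 204 and 52.7 CPM. Both genes were thus above the central reference in each area. Of 10 sensory neuron genes tested, 5 were higher than in the central reference (Calca, Prph, Avil, P2rx3 and Trpv1) and none lower. The count was 1 of 9 with ranks over all areas together. By ranks within areas the median of the list against the peripheral reference was 0.08, and its sum stood at 138%, 110%, 142% and 69.2%. Prph, an intermediate filament of peripheral neurons, was at 794, 1495, 772 and 1834 CPM beside 719, 394, 305 and 582 CPM in the central reference. TN1 was the closest to its central reference. Pou4f1, a defining factor of sensory neurons, had no UMI in dual-rank spots of any area.

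Of genes linked to injured neurons, Atf3, Csrp3 and Gadd45a were higher than in the central reference among 4 tested. Of genes of repair Schwann cells, Ngfr, Jun, Runx2 and Mcam were so among 6. Against the peripheral reference none passed, with list medians of 0.41 and 0.09. The sums were 66.7%, 115%, 149% and 188% of the peripheral reference for neuronal injury and 109%, 112%, 128% and 77.9% for repair Schwann genes. Atf3, a transcription factor induced in injured neurons, was at 17.8 CPM in TN1, 238 in TN2 and 152 in TN3, with 7.28 in HC. In the central reference it was at 17.6, 48.6, 36.1 and 2.91 CPM. TN1 thus lay beside its central reference, though the TN1 and HC values in dual-rank spots rest on few UMIs. Ngfr, the low-affinity neurotrophin receptor, was at 166, 650, 401 and 320 CPM beside 117, 95.4, 125 and 86.3 CPM. Of the macrophage and microglia genes, Cd68 and Lyz2 passed among 9 tested and were higher, while 5 of the 9 had a negative fold change and the median log2 fold change was -0.37. P2ry12 and Cx3cr1, which define microglia, had too few UMIs to be tested. The summed macrophage and microglia level was 148%, 145% and 113% of the central reference in TN1, TN2 and TN3 and 53.6% in HC, so the sum in the TN areas and the median over genes differ in sign.

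Against the peripheral reference, no gene passed. Of 8662 genes, 0% were called higher and 0% lower by edgeR, 644 had an unadjusted p under 0.05, and DESeq2 called 56 higher (0.647%) and 24 lower (0.277%). The median log2 fold change was 1.95 for the central myelin genes outside the rule (10 of 11 positive), -0.91 for the peripheral ones (11 of 11 negative) and 2.36 for astrocyte genes (10 of 10 positive), beside 0.00 over all genes. DESeq2 called 8 of 11 central myelin and 7 of 10 astrocyte genes higher and 4 of 11 peripheral myelin genes lower. With ranks over all areas together edgeR called 10, 9 and 4 of these, beside 164 genes higher and 45 lower of 7204. The smallest adjusted p among genes of the lists belonged to C1ql1, a gene of oligodendrocyte precursors, with 53.3, 27.3, 27.8 and 36.4 CPM in dual-rank spots and 3.19, 7.84, 10.3 and 4.52 CPM in the peripheral reference (log2 fold change 2.23, SE 0.35, adjusted p = 0.12 by edgeR). Its dual-rank levels lay above the reference in each area although the call missed the threshold.

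Without TN2 and TN3 the same comparison called 120 genes higher (1.44% of 8344) and 75 lower (0.899%). TN2 and TN3 were left out for their low central myelin level, so these counts show how the result depends on the areas and are no separate finding. In TN1, Pmp22 in dual-rank spots was at 17.8% and in HC at 20.4% of the peripheral reference, against 59.1% in TN2 and 77.2% in TN3.

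By ranks within areas, the astrocyte genes stood above the central reference in TN1 alone. Their summed level was 7968 CPM in dual-rank spots of TN1, above both the central reference (5069 CPM) and the peripheral reference (500 CPM) of that area. In TN2, TN3 and HC it was 1922, 1752 and 3633 CPM, or 20.2%, 24.7% and 52.4% of the central reference, and above the peripheral reference in each. Gfap, the intermediate filament of astrocytes, was at 3673 CPM in TN1, 1070 in TN2 and 965 in TN3, with 1687 in HC, beside 1663, 5393, 3735 and 3764 CPM in the central reference. Aqp4, the water channel of astrocyte endfeet, was at 1149, 95.7, 99.3 and 442 CPM beside 643, 1227, 892 and 891 CPM. Both genes were above the central reference in TN1 alone, and the difference of TN1 from the other areas was not tested. It also moved with the choice of spots. With ranks over all areas together the astrocyte sum in TN1 was 4202 CPM beside 5139 CPM in its central reference (81.8%), and TN3 was the area above its reference, with 8146 beside 6997 CPM (116%). With thinned scores TN1 stood at 84% and no area exceeded its central reference. Over the 4 areas, 3 of 10 astrocyte genes passed, Mlc1, Agt and Slc1a3, all lower than in the central reference.

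No gene was called higher or lower than both references, that is 0% of 8662 in either direction by edgeR. By unadjusted p under 0.05 against each reference there were 34 such genes, and DESeq2 called Igf2 alone, 0.0115% of those tested. In CPM, 164 genes (1.89%) lay above both references in each of the 4 areas and 81 (0.935%) below both, while with TMM scaling the counts were 111 (1.28%) and 123 (1.42%), so the balance of higher and lower turned with the scaling. The following genes were singled out after their values were seen.

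Igf2, an insulin-like growth factor made in the adult nervous system by the meninges, choroid plexus and vessels, was at 113 CPM in TN1, 128 in TN2 and 130 in TN3, with 65.5 in HC in dual-rank spots. It was at 15.2, 74.4, 72.2 and 24.9 CPM in the central reference and at 39.1, 49.8, 55 and 14.6 CPM in the peripheral reference. Each area's dual-rank spots lay above both of its references. The log2 fold change was 1.14 against the central reference (SE 0.31, adjusted p = 0.025) and 1.45 against the peripheral reference (SE 0.31, adjusted p = 0.24), both by edgeR. These levels rest on 19, 193, 239 and 36 UMIs, of which the 5 highest spots held 52.6%, 37.8%, 20.5% and 44.4%. With spots of at least 5000 UMIs the log2 fold change against the central reference was 0.57 (adjusted p = 0.26), and with scores from spots thinned to 2000 UMIs it was 0.15 (adjusted p = 0.81).

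Of the 5 genes of meninges and perineurium, Slc6a13, Foxc1 and Cldn1 were higher than in the central reference (median log2 fold change of the list 1.38) and none passed against the peripheral reference (median 0.55). Slc6a13, a GABA transporter of meningeal fibroblasts, was at 59.2, 150 and 147 CPM in TN1, TN2 and TN3 and at 5.46 CPM in HC, the last from 3 UMIs. It was at 11.7, 20, 51.9 and 4.57 CPM in the central and at 41.5, 62.4, 91.7 and 2.09 CPM in the peripheral reference, so each area lay above both references, HC by a margin within its 3 UMIs. The summed level of the list was 142, 258, 245 and 32.8 CPM in dual-rank spots, 22.2, 49.6, 94.8 and 16.2 CPM in the central reference and 162, 138, 166 and 19.5 CPM in the peripheral reference. TN1 was the area in which it did not exceed the peripheral reference, at 87.8%. Under the other choices of spots its level there ran from 42.7% with 600 spots to 200.4% with at least 5000 UMIs, the last from 9 spots. Cdh5, a cadherin of endothelial junctions, was at 17.8, 55.2, 45.8 and 21.8 CPM, above 10.5, 19.1, 29.3 and 7.06 CPM in the central and 12, 28.3, 35.2 and 9.73 CPM in the peripheral reference. The TN1 level of Cdh5 rests on few UMIs, and its margin there lies within counting error.

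When spots were ranked over all areas together in place of within each area, the 300 spots were 53 of TN1, 12 of TN2 and 50 of TN3 beside 185 of HC, and 106 of them (35.3%) were dual-rank spots by the main rule. This set differed from both references in 7 genes (0.0972% of 7204), all higher: Cpxm2, Igf2, Rbp4, Pdpn, Igfbp2, Asgr2 and Fam107a. Igf2 was then at 141, 259, 270 and 30.1 CPM, with a log2 fold change of 1.54 against the central reference (adjusted p = 0.0085) and 1.81 against the peripheral reference (adjusted p = 0.015), both by edgeR. Igfbp2, which binds insulin-like growth factors, was at 102, 344, 259 and 88.1 CPM, beside 93.3, 82, 82.8 and 34.7 CPM in the central and 45.5, 45.9, 74.9 and 85.9 CPM in the peripheral reference. Pdpn, a surface protein of meningeal and perineurial cells, was at 48, 179, 159 and 46.8 CPM. The 7 genes were above both references in TN1, TN2 and TN3, while in HC the excess over the peripheral reference was small for Igfbp2 and Pdpn, and Asgr2 was at 0.927 CPM beside 3.01 CPM.

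**Figure D3:**
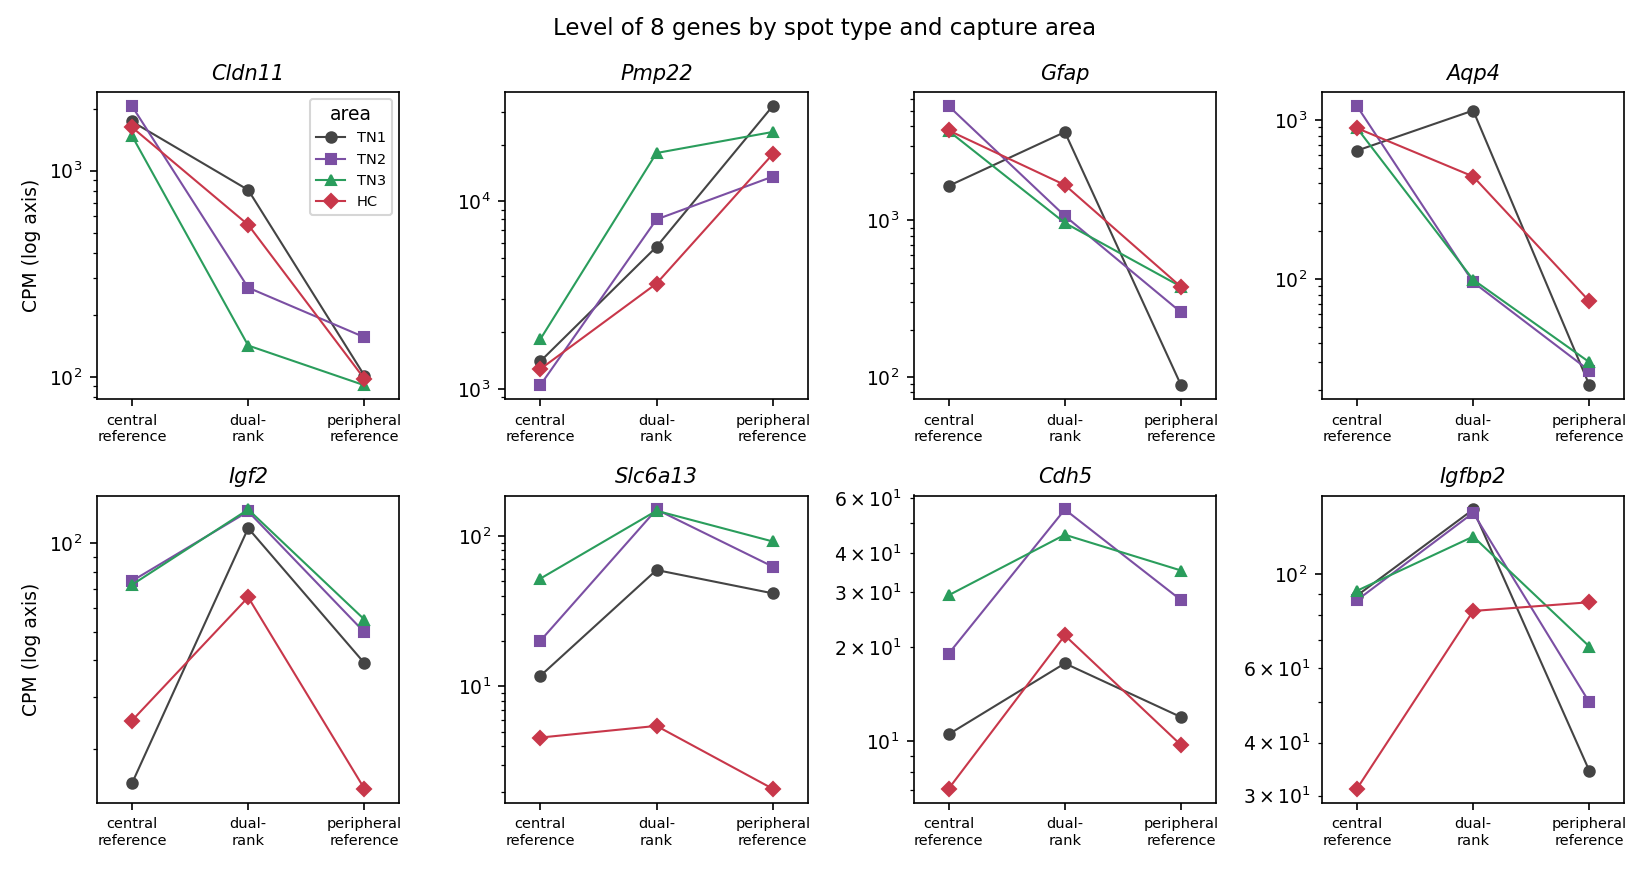
Level in CPM on a log axis (vertical) of 8 genes in central reference, dual-rank and peripheral reference spots (horizontal), with a line for each capture area and no error bar since each point is 1 sum of UMIs. Cldn11 and Pmp22 run between the references, Gfap and Aqp4 peak in dual-rank spots in TN1 alone, Igf2, Slc6a13 and Cdh5 are highest in dual-rank spots in each area, and Igfbp2 is so in the 3 TN areas but not in HC. The margins of Slc6a13 in HC and of Cdh5 in TN1 rest on few UMIs.

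Nodal and paranodal genes, which organise the gaps between myelin segments, stood at 98.7% to 152% of the central and 80% to 125% of the peripheral reference, and Kcna2, a juxtaparanodal potassium channel, was the 1 gene of 8 that was higher than in the central reference. Of 3 glial matrix genes tested, Tnc, an extracellular glycoprotein, was higher than in the central reference, at 41.5, 80.4, 55.1 and 23.7 CPM beside 12.9, 34.3, 23.7 and 15.4 CPM. Of 7 genes of boundary cap cells, which line the root border in the embryo, 1 had enough UMIs to be tested, Hey2, which did not pass. Of 6 oligodendrocyte precursor genes, C1ql1 and Neu4 were lower than in the central reference. Of the satellite glia genes Cdh19 was higher and Glul lower, and of 8 endothelial genes Cdh5 was higher. Over all genes tested 8.84% were higher and 7.72% lower, so a count of 1 gene in 8 lies near the background and says nothing about such a list. Of 8 blood and bone genes Bglap was the 1 that was higher, with HC the area apart (371 CPM beside 59.4 in its central reference), and none of 3 pituitary genes or 1 central neuron gene passed. The pituitary genes summed to 142, 483, 112 and 602 CPM in dual-rank spots, with Gh1 the most abundant, and their part in the results was not tested.

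**Figure D4:**
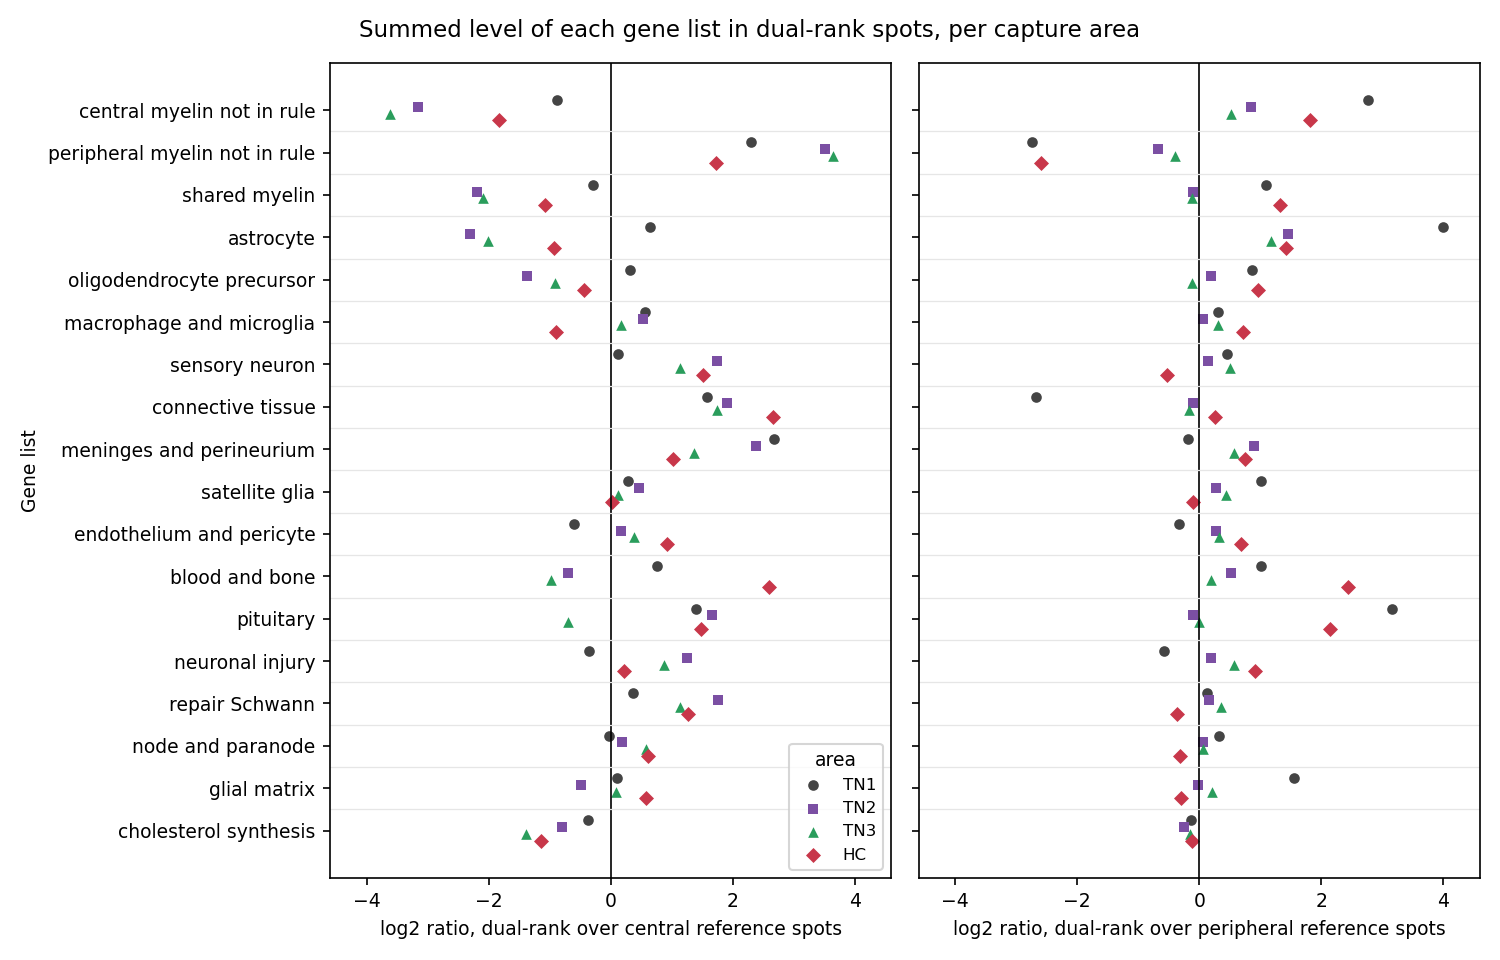
Log2 ratio of the summed CPM of each gene list in dual-rank spots to that in the central reference (left) and the peripheral reference (right), with a point for each capture area. Connective tissue and meningeal lists are above the central reference in all 4 areas, the astrocyte list is above it in TN1 alone, and blood and bone stand apart in HC against both references.

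In dual-rank spots, TN was compared with HC by edgeR over 8983 genes on 3 sums against 1. No gene was called higher in TN (0%) and 2 were called lower (0.0223%), S100a8 and Bglap, while 1059 had an unadjusted p under 0.05 and DESeq2 called 2 higher and 12 lower. S100a8, a calcium-binding protein of neutrophils, was at 5.92, 11.3 and 9.27 CPM in TN1, TN2 and TN3 and at 287 CPM in HC (log2 fold change -4.99, SE 0.34, adjusted p = 0.02). Bglap, the bone protein osteocalcin, was at 23.7, 21.9 and 27.3 CPM in the TN areas and at 371 CPM in HC (log2 fold change -4.04, SE 0.34, adjusted p = 0.043). In both, HC lay more than 10 times above every TN area. The TN levels came from 1, 17 and 17 UMIs of S100a8 and from 4, 33 and 50 UMIs of Bglap. Those of TN1 thus rest on few UMIs, and the closeness of the TN values says little. With 1 HC sum there is no replicate behind the HC level. Its spread was taken from the TN areas with 2 residual degrees of freedom, so the calls describe this HC sum, and condition, capture area and the unlike myelin makeup of the areas cannot be told apart. The call of both genes was lost without TN2, with adjusted p = 0.16 for S100a8 and 0.2 for Bglap. It was also lost with 600 spots (0.22 and 0.26), without Mobp and Prx in the scores (0.13 and 0.21) and with thinned scores (0.11 for both), by edgeR and in the same order of genes. The count of calls rose to 1189 without TN1.

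The 2 genes belong to the list of blood and bone, of which 9 genes were tested and the other 7 did not pass. Summed over 9 genes, its level in dual-rank spots was 1025 CPM in TN1, 227 in TN2 and 432 in TN3, with 3091 in HC, and in HC it was 606% of the central and 543% of the peripheral reference. Hbb, a globin chain of red cells and the most abundant gene of the list, was at 675, 116, 194 and 1024 CPM. Slc4a1, the anion exchanger of red cells, was at 0, 0, 4.36 and 91 CPM, and Ibsp, bone sialoprotein, at 0, 15.3, 2.18 and 83.7 CPM. In HC, 50 of 72 dual-rank spots had a UMI of S100a8, with 43% of its UMIs in the 5 highest spots, against 42 of 192 central and 55 of 170 peripheral reference spots of deeper median UMIs. The part of blood and bone transcripts in other differences of HC was not tested.

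**Figure D5:**
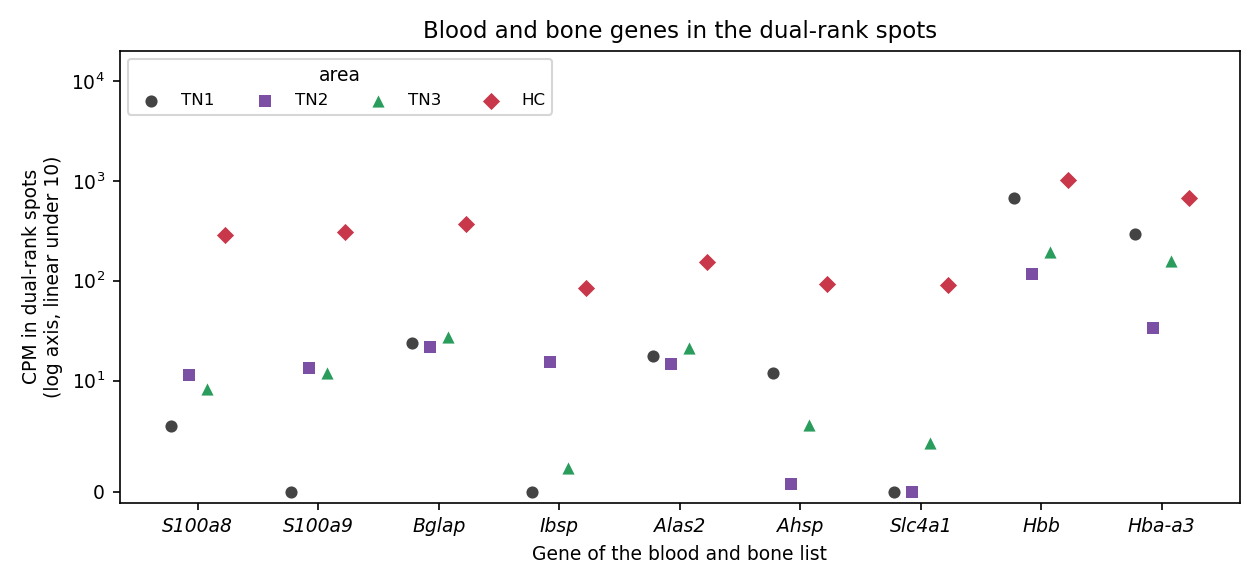
CPM of the 9 blood and bone genes (horizontal axis) in dual-rank spots of each capture area, on an axis that is logarithmic and linear under 10. The HC point is the highest for each gene, with the TN points of S100a8 and Bglap at or under 27.3 CPM.

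Of the genes with all 3 TN areas above HC, none passed, and the 5 of smallest p were Asgr2, Ltbp1, Srsf9, Prmt1 and Mlip. Asgr2, a subunit of the asialoglycoprotein receptor, was at 41.5, 52.5 and 57.8 CPM in TN1, TN2 and TN3 with no UMI in HC, at least 9.27-fold higher against a floor of 3 counts in the HC sum (adjusted p = 0.17 by edgeR). Ltbp1, which binds latent TGF-beta, was at 23.7, 45.2 and 44.2 CPM with no UMI in HC, at least 6.91-fold higher (adjusted p = 0.27 by edgeR). Tph1, an enzyme of serotonin synthesis, was the reverse, with no UMI in the TN sums and 39 UMIs, or 71 CPM, in HC (adjusted p = 0.15 by edgeR).

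No gene of the nerve injury and repair lists passed between TN and HC, and with 3 sums against 1 and 2 residual degrees of freedom no absence of a difference can be read from that. The median log2 fold change of TN over HC was 2.43 for 4 neuronal injury genes, 0.83 for 7 repair Schwann genes, 1.46 for 11 peripheral myelin genes and -1.07 for 11 central myelin genes, beside 0.03 over all genes, and none of these genes passed. The positive medians of the injury and repair lists did not hold in each TN area. The neuronal injury list summed to 88.9, 645 and 367 CPM in TN1, TN2 and TN3 beside 115 CPM in HC, and the repair Schwann list to 515, 1683 and 966 CPM beside 715 CPM, so TN1 lay below HC in both. The peripheral myelin list lay above HC in each TN area. The central myelin list, with its negative median, was at 2903 CPM in TN1, above 1892 CPM in HC. The macrophage and microglia genes had a median of 1.44 over 9 genes, with C1qa, a complement subunit made by macrophages and microglia, at 290, 317 and 311 CPM in TN and 74.6 CPM in HC (adjusted p = 0.34 by edgeR). Its 3 TN values lay close together and HC lay below them. The sensory neuron genes had a median of -1.25 over 10 genes, with Avil, an actin-binding protein of sensory neurons, at 148, 154 and 165 CPM in TN and 442 CPM in HC (adjusted p = 0.34 by edgeR).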

How the data were processed

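RNA of 4 Visium capture areas was analysed. The authors deposited UMI counts per gene and spot, without normalization, made with Space Ranger 1.2.0 per the file headers, and the submitters' processing notes also name STAR. For the genome build and annotation, none is given in the sources used here. Areas were assigned from the barcode suffix in the order of the series description, and no value column was left unmapped. Positions and images were not used, and no doublet caller was run on spots.

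UMIs were summed per area and spot type. Sums of 10 or more spots entered edgeR 4.0.16 in R 4.3.3 (quasi-likelihood test, filterByExpr, TMM) and Benjamini-Hochberg adjustment at 0.05, with the area as a block between spot types (12 sums, 6 residual degrees of freedom) and without one for TN against HC (2 degrees). The 3 TN areas came from separate animals. Levels are plain CPM of the sums and folds come from the TMM fit. The precision is set by the spread between areas (common biological coefficient of variation 0.21 between spot types and 0.28 for TN against HC), the few degrees of freedom and the UMI sums, and the scripts were tested on simulated data in which 200 genes were changed. Of 190 list genes in 22 lists, 187 were found by symbol, and some genes under the naming rule are not reported here. Antisense and overlapping genes cannot be told apart from the sources used here. The rule named the rule genes, the list genes of highest level or those that passed, genes past both references, and the largest or smallest-p genes of TN against HC. Spots, lists and tests were chosen with earlier results of these data known.

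Alternatives were DESeq2 1.42.0 and its size factors, no count filter, areas left out, mitochondrial, ribosomal and hemoglobin genes left out, no block, a minimum of 5000 UMIs, 150 or 600 spots, ranks over all areas, Mobp and Prx left out, and scores thinned to 2000 UMIs.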

Additional observations from a re-analysis of the deposited data

Results flagged for a closer look

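The summed levels of 6 lists moved one way in each TN area and the other way in HC, and none of these differences was tested. Macrophage and microglia genes had a log2 ratio of dual-rank to central reference spots of -0.90 in HC against 0.57, 0.54 and 0.17 in TN1, TN2 and TN3. Against the peripheral reference, sensory neuron genes stood at -0.53 in HC against 0.46, 0.14 and 0.50, and connective tissue genes at 0.27 in HC against -2.68, -0.11 and -0.16. Satellite glia genes stood at -0.11 in HC against 1.01, 0.28 and 0.44. Repair Schwann genes stood at -0.36 in HC against 0.13, 0.17 and 0.36, and nodal and paranodal genes at -0.32 in HC against 0.32, 0.06 and 0.06. HC is 1 area, so its values have no replicate behind them. Each of the 6 splits was lost with at least 1 other choice of spots. With ranks over all areas together sensory neuron genes stood at 115%, 67.3% and 69.9% of the peripheral reference in the TN areas beside 123% in HC, satellite glia genes in HC at 115%, and repair Schwann genes in TN3 at 66.2%. Connective tissue genes in HC stood at 96.3% with 150 spots. With at least 5000 UMIs macrophage and microglia genes in TN3 stood at 80.4% of the central reference and nodal and paranodal genes in TN1 at 88.3% of the peripheral reference.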

How the results depend on the processing

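Genes that differed from the central reference numbered 1435, and the count was 516 without the replicate block, 0 without TN2 and TN3, and 270 to 1994 with 1 area left out. Genes that differed from the peripheral reference numbered 0, and 17 with 150 spots, 22 without Mobp and Prx, 79 with thinned scores, 80 with DESeq2, 195 without TN2 and TN3, 209 with ranks over all areas and 280 without a count filter. They numbered 0 with each area left out and without the block. Beyond both references lay 0 genes, 1 with DESeq2, 7 with ranks over all areas, 13 without a count filter and 0 with any area left out. For TN against HC, 2 genes passed, and 1543 with at least 5000 UMIs, where TN1 had 9 dual-rank spots and dropped out, 502 with ranks over all areas, 97 without a count filter, 14 with DESeq2, 5 with 150 spots, 5 without mitochondrial, ribosomal and hemoglobin genes, 1 without Mobp and Prx, 0 with 600 spots, 0 with thinned scores, and 0 to 1189 with 1 TN area left out. Apart from the smaller or larger number of spots, areas and genes that these settings use, the cause was not tested. For TN against HC no paired analysis was possible, because HC shares no replicate number with the TN areas in a way that links animals. Of 51 fold changes of named genes followed under the alternatives, 48 of them against the central reference, none turned its sign, while those of other named genes were not followed, and calls were lost most often without TN2, without TN3, without both and without the block.

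The share of dual-rank spots was, with 150 and 600 spots, 0.824% and 5.32% in TN1, 1.77% and 11.1% in TN2, 4.61% and 12.3% in TN3 and 1.6% and 7.83% in HC. With ranks over all areas it was 3.36%, 0.968%, 2.78% and 9.23% in the same order, with at least 5000 UMIs 0.672% in TN1, 10.7% in TN3 and 2.82% in HC, and with thinned scores 5.72% in TN3 and 4.79% in HC. Averaged over areas, levels relative to the references moved by less than their SD over areas under each alternative. That SD is large beside the mean, so this cannot show that the levels were stable. With ranks over all areas together the order of the areas turned, as given beside those levels. The further peripheral genes in TN1 then moved from 14.9% to 61.4% of the peripheral reference. TN3 in place of TN1 then had more astrocyte transcripts than its central reference. The share of dual-rank spots over percentile 75 on both further lists, averaged over areas, was 0.806% and became 3.14% with at least 5000 UMIs, and at percentiles 60 and 50 it was 25.4% and 52.4%. Thinning to 2000 UMIs kept 105 of the 300 spots, and leaving out Mobp and Prx kept 162, so depth and the choice of marker genes limit which spots are chosen.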
